A study of Homo sapiens with 11 samples.

Results

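The FOS and JUN genes encode the subunits of AP-1, and 7 of them were followed here on 11 expression arrays of HEK293T, a human line of embryonic kidney origin that takes up plasmid DNA readily. The members were FOS, FOSB, FOSL1, FOSL2, JUN, JUNB and JUND, chosen by gene symbol: every probe that the platform annotation assigns to 1 of these symbols was used. That gave 7 probes, 1 per gene, of 42000 on the arrays, of which 27916 had a single gene symbol (18836 genes in all). Cells were transfected by lipofection either with the wild-type cDNA of DFNA5 (wtDFNA5, 5 arrays) or with a mutant cDNA from which an exon is deleted (mutDFNA5, 6 arrays), the form linked to a dominantly inherited hearing loss. DFNA5 encodes gasdermin E. Both groups shared the same cell line and transfection, and no array of cells with an empty vector was analysed here, so a difference can come from either construct. Sample titles call the mutant group KO, but the sample characteristics name a transfected mutant and no deleted gene. The labels give 6 h after transfection for the harvest and 12 h for the RNA extraction. The comparison asked which transcripts of the AP-1 subunits differ between cells that received the mutant and cells that received the wild type.

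AP-1 is a dimer of basic leucine zipper proteins. FOS proteins bind DNA only with a partner, usually a JUN protein, whereas JUN proteins can also pair with each other. FOS, FOSB, JUN and JUNB are immediate early genes. Their transcription starts within minutes of a signal through MAP kinases, calcium or cAMP, without new protein synthesis. The JUN protein is also controlled after translation, since JNK, the MAP kinase named for it, phosphorylates its N-terminal part, and JUND is transcribed steadily in many cell types.

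Transcripts of FOS, FOSB and JUNB were higher in every mutDFNA5 array than in any wtDFNA5 array, a separation without overlap that 5.81% of all tested probes showed in either direction and 2.61% in this one. FOSB was 2.99-fold higher (95% confidence interval 2.65 to 3.37), JUNB 2.78-fold (2.49 to 3.12) and FOS 2.30-fold (2.01 to 2.64), with 5 and 6 arrays per group. JUN and JUND, detected on all 11 arrays, did not pass the test, with intervals of 0.905 to 1.16-fold for JUN and 0.800 to 1.02-fold for JUND. FOSL1 and FOSL2 were near or under the detection limit. Thus 3 of the 5 member probes that could be tested were called higher in mutDFNA5 and 0 lower (0 lower also at an unadjusted p under 0.05). Of all 14542 tested probes, 8.22% were called, 3.91% higher and 4.31% lower (limma, adjusted p under 0.05 by Benjamini-Hochberg over all tested probes). A log2 change over 1 in the same direction was found for 0.131% of all tested probes, 19 in number, which include these 3. With median scaling in place of quantile normalization, 376 probes were called higher and 72 lower, against 569 and 627, and FOS, FOSB and JUNB remained called. The study lists FOS, FOSB and JUNB from these same arrays, so their direction here is not independent evidence. Apart from the arrays, the study reported higher FOSB in mutDFNA5 by real-time rtPCR on newly collected RNA.

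Between 14029 and 15443 probes per array were detected (detection p under 0.01), and probes detected on at least 5 of the 11 arrays were tested. Values are quantile-normalized log2 signals, on which 1 unit is a doubling. Array medians before normalization lay between 6.90 (wtDFNA5 replicate 4) and 7.33 (mutDFNA5 replicate 1). The methods call the replicates biologically independent, and their spread is what the p-values measure. The vimentin gene VIM, CDH2, KRT18 and the neurofilament gene NEFM, all markers of HEK293T cells, were detected on all 11 arrays, whereas KRT8 was detected on 0. NEFM rose by 0.75 (adjusted p = 8.91e-07), and its part in the changes of the AP-1 subunits was not tested. Of 7 measured markers of other cell types, PTPRC, CD3E, ALB, HBB and GFAP were detected on 0 arrays, COL1A1 on 2 and PECAM1 on 9, and the change of PECAM1 was -0.04 (adjusted p = 0.866). In such bulk RNA, more cells that express a gene and more RNA per cell cannot be told apart.

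Among the FOS subfamily, FOS (probe ILMN_1669523) encodes the founding member, a strong activator that is rapidly degraded. Its normalized log2 signal in wtDFNA5 was 9.40, 9.39, 9.60, 9.34 and 9.74 in replicates 1 to 5. In mutDFNA5 the lowest of 6 arrays was 10.41, the median 10.70 and the highest 10.99. The groups did not overlap, and the lowest mutDFNA5 array lay 0.67 above the highest wtDFNA5 array. The means were 9.49 ± 0.17 (SD, n = 5) and 10.69 ± 0.19 (SD, n = 6). FOS rose by 1.20 on the log2 scale (SE 0.10, limma adjusted p = 9.47e-09), rank 17 of all tested probes by p and rank 10 by size of rise. The highest mutDFNA5 array for FOS was replicate 4 and the lowest replicate 6.

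FOSB (probe ILMN_1751607) encodes a paralogue of FOS that also occurs as a shortened, long-lived splice form, known best from neurons. Splice forms were not told apart here. The wtDFNA5 arrays read 7.91, 7.69, 8.13, 8.06 and 8.01 on the normalized log2 scale. The 6 mutDFNA5 arrays ran from 9.43 through a median of 9.54 to 9.67. This was the widest separation of the family, with a gap of 1.30 between the nearest arrays of the groups. From 7.96 ± 0.17 (SD, n = 5) to 9.54 ± 0.10 (SD, n = 6), FOSB rose by 1.58 (SE 0.08, limma adjusted p = 6.05e-12), rank 7 of all tested probes by p and rank 6 by size of rise. With the background subtracted by normexp, the rise of FOSB was 2.22 (4.66-fold), over 1.5 times the fold reported.

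FOSL1 and FOSL2 encode FRA1 and FRA2, FOS relatives that lack the strong activation domain and usually appear later in a response. The FOSL1 probe (ILMN_1771841) was detected on 1 of 5 wtDFNA5 arrays and 3 of 6 mutDFNA5 arrays, and the FOSL2 probe (ILMN_1725175) on 0 of 5 and 1 of 6, so neither was tested. The lowest signal of a detected probe lay between 7.36 and 7.46 on each array. For FOSL1 the means were 7.26 ± 0.12 (SD) over 5 wtDFNA5 arrays and 7.40 ± 0.12 over 6 mutDFNA5 arrays, and for FOSL2 7.22 ± 0.14 and 7.28 ± 0.10. In a fit without the detection filter the change of FOSL1 was 0.14 (95% confidence interval -0.02 to 0.31, limma adjusted p = 0.524) and that of FOSL2 0.06 (-0.10 to 0.23, adjusted p = 0.845). Since a dim probe carries mostly background, these intervals do not limit the change of the transcript.

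In the JUN subfamily, JUNB (probe ILMN_2086077) encodes a subunit that is a weaker activator than JUN at many sites and can counter it. The wtDFNA5 arrays were at 8.32, 8.28, 8.08, 8.23 and 8.24. The mutDFNA5 arrays had a lowest value of 9.59, a median of 9.68 and a highest of 9.90. All mutDFNA5 arrays therefore lay above all wtDFNA5 arrays, by 1.26 at the nearest. JUNB rose by 1.48 (SE 0.08, limma adjusted p = 6.05e-12), from 8.23 ± 0.09 (SD, n = 5) to 9.71 ± 0.13 (SD, n = 6), rank 6 of all tested probes by p and rank 7 by size of rise. For JUNB, the normexp correction gave 1.94 (3.85-fold).

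JUN (probe ILMN_1806023), the founding subunit of its subfamily and the namesake target of JNK, gave bright signals in both groups. The wtDFNA5 arrays read 12.94, 12.69, 12.82, 13.09 and 12.67, and the mutDFNA5 arrays 12.73 at the lowest, 12.87 at the median and 13.08 at the highest. The mutDFNA5 arrays all lay inside the range of the wtDFNA5 arrays. The change of 0.04 (95% confidence interval -0.14 to 0.22, limma adjusted p = 0.846) separated means of 12.84 ± 0.18 (SD, n = 5) and 12.88 ± 0.12 (SD, n = 6). The sign of this small value turned when 1 array was left out (wtDFNA5 replicate 2 or 5, or mutDFNA5 replicate 4), within a range of -0.0077 to 0.10.

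JUND (probe ILMN_1810214) encodes the subunit that in many resting cells makes up much of the JUN protein. Its wtDFNA5 values were 13.49, 13.24, 13.70, 13.45 and 13.55. In mutDFNA5 they ran from 13.10 through a median of 13.38 to 13.42, within a wtDFNA5 range that the lowest array alone fell below. That lowest array, replicate 5, stood apart from the others, which lay between 13.36 and 13.42. The difference of means, 13.49 ± 0.17 (SD, n = 5) against 13.34 ± 0.12 (SD, n = 6), was -0.15 (95% confidence interval -0.32 to 0.03, limma adjusted p = 0.321), and -0.10 without replicate 5.

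**Figure D1:**
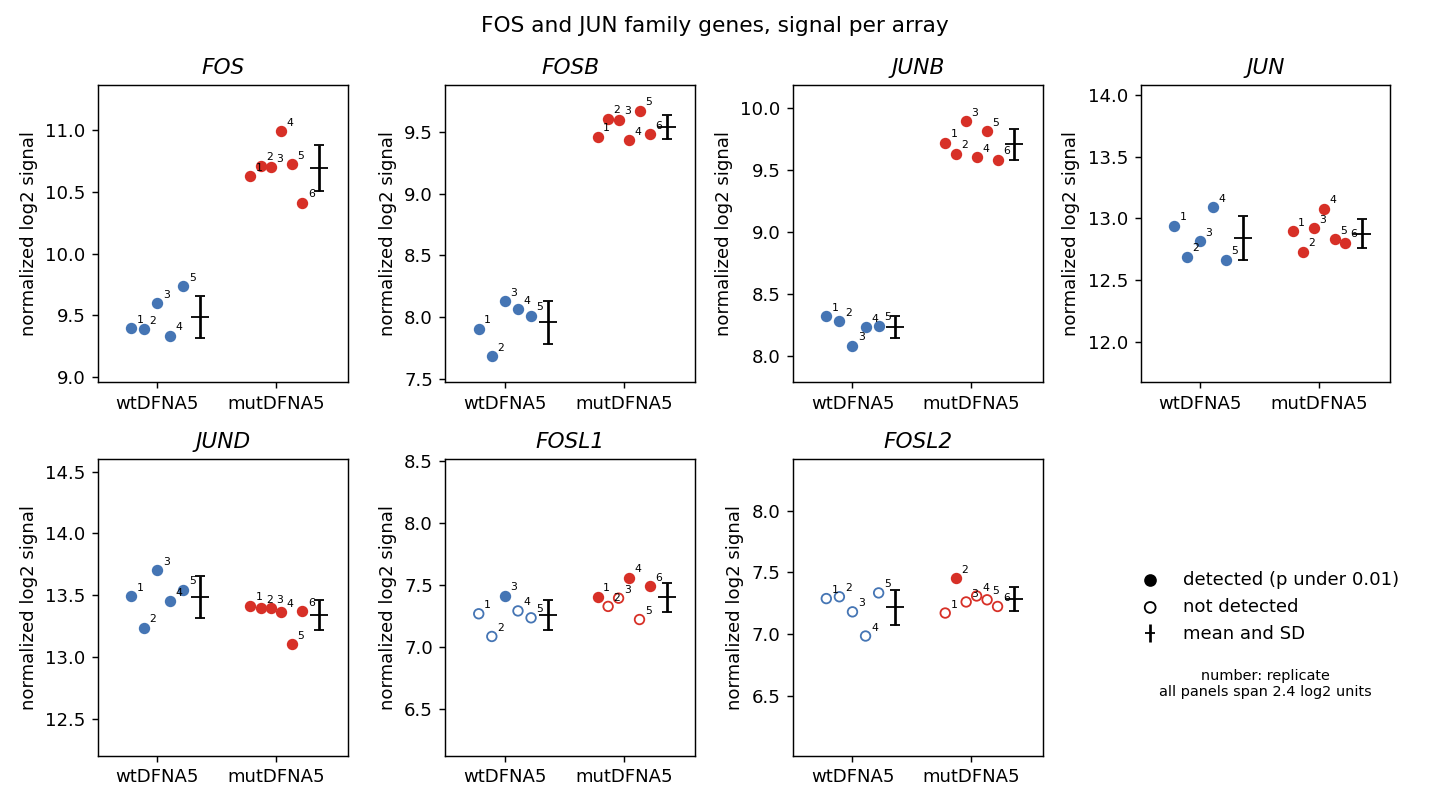
Normalized log2 signal (vertical axis) of each FOS and JUN family probe in the 5 wtDFNA5 and 6 mutDFNA5 arrays, with 1 point per array numbered by replicate, filled where the probe was detected, and bars for the mean and SD. The FOS, FOSB and JUNB points of mutDFNA5 lie above every wtDFNA5 point, by 0.67, 1.30 and 1.26, whereas JUN, JUND, FOSL1 and FOSL2 overlap between the groups.

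The separation was also present before normalization. The raw log2 signals of FOS reached 9.80 at most in wtDFNA5 and 10.45 at least in mutDFNA5. Those of FOSB were 8.26 and 9.35, and those of JUNB 8.35 and 9.52. Array wtDFNA5 replicate 4, the dimmest before normalization, gave the lowest raw wtDFNA5 signal for each of these genes, but after normalization it was the lowest only for FOS. Leaving out any single array kept the rise of FOS between 1.14 and 1.26, that of FOSB between 1.51 and 1.62 and that of JUNB between 1.44 and 1.50, and all 3 remained called.

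**Figure D2:**
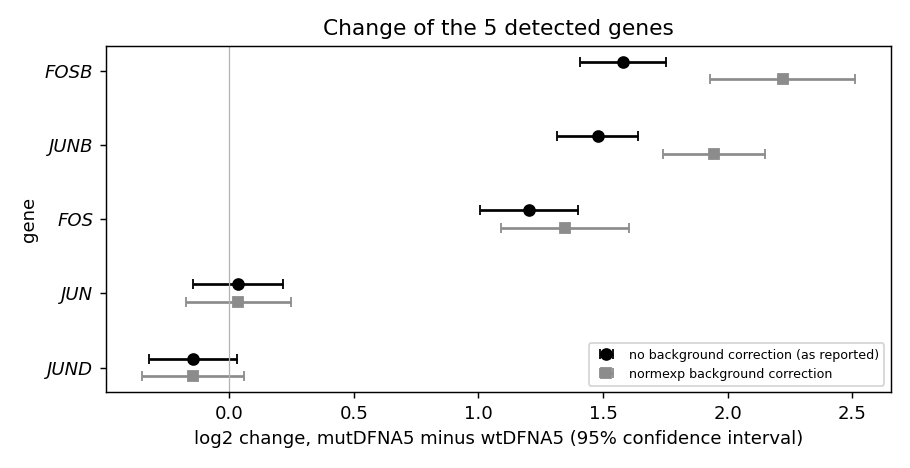
Log2 change (mutDFNA5 minus wtDFNA5, horizontal axis) with its 95% confidence interval for the 5 detected genes, without background correction (circles, as reported) and with normexp correction (squares). FOS, FOSB and JUNB lie right of 0 under both, at 1.20, 1.58 and 1.48 uncorrected and at 1.35, 2.22 and 1.94 corrected, whereas the intervals of JUN and JUND span 0.

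Whether the members changed by different amounts was tested on the difference between 2 probes within each array, which cancels what an array shares. All 10 pairs of the 5 detected members were compared by a two-sided exact permutation test over the 462 assignments of arrays to groups, with adjustment over the 10 pairs, and intervals come from the pooled spread of the groups. Each of FOS, FOSB and JUNB differed in log2 change from JUN and from JUND, by 1.17 to 1.73, with the smallest p that the assignments allow (0.00216, adjusted p = 0.00361 by the exact permutation test). The 3 genes that rose were closer to each other. FOSB rose more than FOS by 0.38 (95% confidence interval of FOS minus FOSB -0.65 to -0.10, exact permutation adjusted p = 0.0278). That call was lost with median scaling (adjusted p = 0.0588 by the exact permutation test) and without wtDFNA5 replicate 2 or replicate 5 (0.0544 each). With normexp correction the rises lay further apart, at 1.35 for FOS and 2.22 for FOSB. The rises of FOSB and JUNB differed by 0.10 (interval -0.14 to 0.35, exact permutation adjusted p = 0.379), and FOS minus JUNB was -0.28 (-0.58 to 0.03, adjusted p = 0.111). The latter pair was called after normexp correction (-0.60, exact permutation adjusted p = 0.0135) and without mutDFNA5 replicate 4 (adjusted p = 0.00992). JUN minus JUND was 0.18 (-0.08 to 0.45, exact permutation adjusted p = 0.173).

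**Figure D3:**
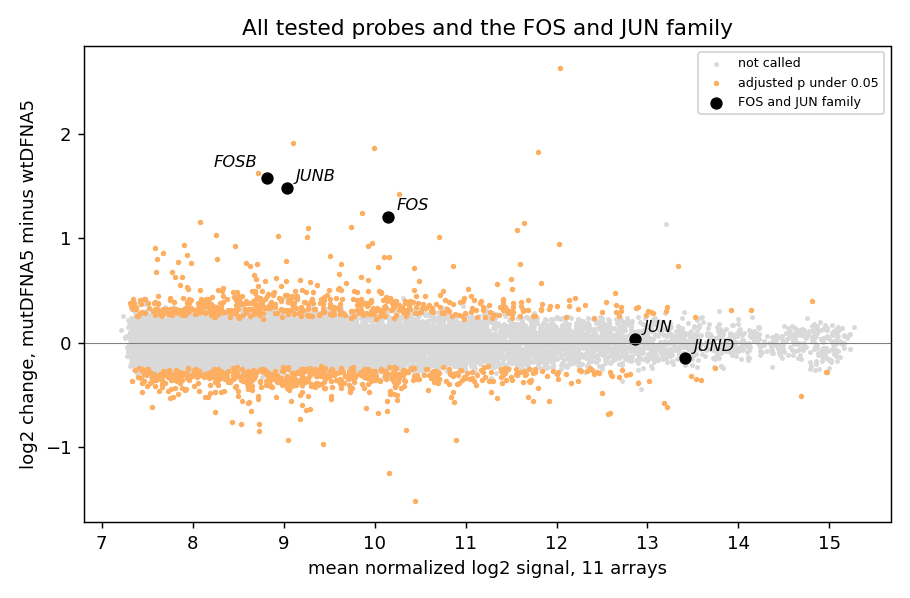
Log2 change (mutDFNA5 minus wtDFNA5, vertical axis) against mean normalized log2 signal over 11 arrays (horizontal axis) for all 14542 tested probes, with called probes in orange and the 5 detected family members in black. FOSB (1.58), JUNB (1.48) and FOS (1.20) lie at the upper edge of the cloud, and JUN (0.04) and JUND (-0.15) at its middle.

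The sequences before the transcription starts are shown because members that rose and members that did not share some elements there. They were taken from RefSeq (GRCh38.p14) for 6 of the 7 members. Both strands were searched for 5 motifs. The letters TGACGT are the core of the cAMP response element, which CREB and ATF proteins bind. The letters TATAAA are a TATA box. The letters TGACATCA make the site through which JUN and ATF2 act on the JUN promoter. The letters TGACTCA are the classic AP-1 site, and the CArG box is that of serum response factor. Each line gives the bases that end just before the start, 5′ to 3′, with every match in capitals.
FOS, chr14:75278578-75278827, plus strand: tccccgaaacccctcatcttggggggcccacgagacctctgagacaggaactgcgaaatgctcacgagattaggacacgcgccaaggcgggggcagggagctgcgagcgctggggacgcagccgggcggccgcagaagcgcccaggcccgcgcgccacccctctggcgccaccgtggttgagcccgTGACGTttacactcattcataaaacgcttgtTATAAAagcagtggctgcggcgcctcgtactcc
FOSB, chr19:45467746-45467995, plus strand: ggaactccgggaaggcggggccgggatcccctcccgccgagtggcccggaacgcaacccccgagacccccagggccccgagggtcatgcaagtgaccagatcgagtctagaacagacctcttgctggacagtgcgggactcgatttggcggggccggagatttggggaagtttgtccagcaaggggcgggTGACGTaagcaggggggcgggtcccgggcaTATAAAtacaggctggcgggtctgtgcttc
JUNB, chr19:12791236-12791485, plus strand: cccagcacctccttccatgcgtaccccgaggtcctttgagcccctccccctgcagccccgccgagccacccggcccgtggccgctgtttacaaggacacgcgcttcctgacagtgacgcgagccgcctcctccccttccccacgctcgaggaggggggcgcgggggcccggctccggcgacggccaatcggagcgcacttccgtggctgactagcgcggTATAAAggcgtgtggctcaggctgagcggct
JUN, chr1:58784048-58784297, minus strand: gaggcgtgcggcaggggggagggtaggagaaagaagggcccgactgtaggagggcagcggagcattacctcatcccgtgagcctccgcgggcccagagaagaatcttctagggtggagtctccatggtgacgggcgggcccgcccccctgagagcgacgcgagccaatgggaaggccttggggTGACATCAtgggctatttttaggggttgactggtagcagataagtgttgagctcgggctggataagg
JUND, chr19:18281623-18281872, minus strand: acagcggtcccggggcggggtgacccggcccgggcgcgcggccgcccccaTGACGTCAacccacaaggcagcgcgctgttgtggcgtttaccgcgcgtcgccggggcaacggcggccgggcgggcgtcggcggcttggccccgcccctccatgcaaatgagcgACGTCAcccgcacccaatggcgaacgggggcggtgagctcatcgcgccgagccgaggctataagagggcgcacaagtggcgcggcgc

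TGACGT was found in FOS (64 to 59 bases before the start), FOSB (60 to 55), FOSL2 (66 to 61) and JUND, which holds the palindrome TGACGTCA at 200 to 193 and a further match on the opposite strand at 87 to 82. That is 4 of 6 members, against 7.10% of 35116 RefSeq regions of the same length. TATAAA stood in FOS at 33 to 28, in FOSB at 30 to 25 and in JUNB at 31 to 26 bases before the start, and in none of JUN, JUND and FOSL2. It was in 10.7% of all regions. Thus the 3 genes that rose have these exact letters. JUND, which was not called, holds the near match TATAAG close to its start, and FOSL2 was not tested for a change. A TATA box is therefore not shown to separate the members that rose from the others. The cAMP core is shared by members that rose (FOS, FOSB) and a member that was not called (JUND). TGACATCA occurred in JUN alone (67 to 60) and in 2.37% of regions. TGACTCA was in 0 of 6 members and 4.20% of regions, and the CArG box in 0 of 6 and 1.16%. A match is letters in a window and not a bound site, and nothing follows for a factor whose letters fall outside it.

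Over the 11 arrays, each profile was centred on its own mean and set against 9648 other genes by the root mean square difference in log2 units, which is dominated by the size of the group difference. The genes closest to FOS were TNFRSF12A, the receptor of the cytokine TWEAK (0.169), CITED1, a transcriptional coregulator (0.173), and ANXA1, a calcium-dependent phospholipid-binding protein (0.184), against a median of 0.636 over all genes. Closest to FOSB were ARC, an immediate early gene of neurons (0.158), C11orf96 (0.189) and EGR1, an immediate early zinc finger factor (0.195), with a median of 0.810. JUNB was closest to KCTD12, an auxiliary subunit of GABA-B receptors (0.166), ARC (0.195) and CITED1 (0.198), with a median of 0.757. Within the family, FOSB and JUNB differed by 0.169, FOS and JUNB by 0.243 and FOS and FOSB by 0.262. The study lists TNFRSF12A, CITED1, ANXA1, ARC, EGR1, KCTD12 and C11orf96 (as LOC387763) from these arrays too, so their direction here is not independent evidence. The log2 change was 1.82 for EGR1 and 1.63 for ARC in the same fit.

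Genes that act with or on the family were grouped in 5 lists by role and read with 1 probe per gene, the brightest, against 8.97% of 9653 genes called, 4.05% higher and 4.92% lower. Other leucine zipper proteins that pair with FOS or JUN numbered 10 tested of 17 listed, of which 2 were called higher, 1 lower and 7 not called, with a median log2 change of 0.15 against -0.005 over all genes. MAFF, a small MAF protein without an activation domain, rose by 0.93 from 7.40 ± 0.07 (SD, n = 5) to 8.33 ± 0.13 (SD, n = 6; limma adjusted p = 1.79e-08). MAFF was above the detection limit on 3 of 5 arrays with wtDFNA5 and on 6 of 6 with mutDFNA5, and a second MAFF probe changed by 0.14 (adjusted p = 0.395). Its mean in wtDFNA5 lies at the detection limit, so it entered the test through mutDFNA5 and its log2 change is understated: normexp correction gave 1.88 (adjusted p = 1.90e-06). JDP2, which was not called (0.30, limma adjusted p = 0.0778), passed the filter by its 5 detections with mutDFNA5, since it had 0 with wtDFNA5. Probes that enter through a single group tend to be higher in that group. Both MAFF and JDP2 count in the median of 0.15, which is therefore not read as a shift of the list. BATF3, a factor best known from dendritic cells, rose by 0.46 (adjusted p = 0.00250). ATF4 counts as not called by its brightest probe (0.12, limma adjusted p = 0.381). A dimmer ATF4 probe was called higher (0.34, adjusted p = 0.0309), and another changed by -0.17 (adjusted p = 0.175). ATF3, a stress-induced factor that can repress its targets, fell by 0.56, from 12.23 ± 0.09 to 11.66 ± 0.21 (adjusted p = 0.000461). The study lists MAFF and ATF3 from these same arrays, so their direction is not independent evidence.

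The lists of transcriptional regulators and of kinases hold proteins that act on the FOS and JUN genes or their products. At the 8.97% of all genes called, the counts of called genes in these lists are near the background. The share of all genes with an unadjusted p under 0.05 is not given here. The counts at that threshold below therefore have no background and are not read as a result. Of 14 tested transcription factors and coactivators (19 listed, among them SRF, its ternary complex partners and CREB), 0 were called in either direction by limma, 4 had an unadjusted p under 0.05, and the median change was 0.11. The brightest CREB1 probe changed by 0.18 (limma adjusted p = 0.352) and a dimmer one by -0.34 (adjusted p = 0.0725). Among the brightest probes SRF had the smallest p, with a change of 0.22 (adjusted p = 0.102). Its signal was 11.38 in wtDFNA5 replicate 4 and 10.92 to 11.04 in the other wtDFNA5 arrays, and without that replicate SRF was called (change 0.29, adjusted p = 0.0171). Of 11 tested kinases (15 listed: MAP kinases of the ERK and JNK branches, RSK and MSK kinases downstream of MAP kinases, casein kinase CSNK2A1 and GSK3B were among those tested, and the p38 gene MAPK14 was not), 0 were called in either direction, 5 had an unadjusted p under 0.05, and the median was -0.04. The smallest p was that of MAPK7, which encodes ERK5, with a change of -0.27 (adjusted p = 0.0545), called without wtDFNA5 replicate 5 (0.0286) or mutDFNA5 replicate 5 (0.0484). Restricting the test to probes detected on all 11 arrays gave 1 kinase called higher and 2 lower. The arrays measure transcripts, and the activity of a kinase is not measured by them. By western blot, the study reported more phosphorylated JNK with mutDFNA5, and to a lesser degree more phosphorylated ERK. It saw no difference for p38, nor for ERK and JNK that were not phosphorylated.

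Turnover of FOS and JUN includes decay of their AU-rich mRNAs and ubiquitin-dependent loss of the proteins. Of 14 tested genes for it (15 listed), 4 were called higher, 1 lower and 9 not called, with a median of 0.09. That is 35.7% called, against 8.97% of all genes, in a list chosen with earlier results of these data known. ZFP36, which encodes tristetraprolin and promotes decay of AU-rich mRNAs, rose by 0.68, from 7.41 ± 0.22 (SD, n = 5) to 8.08 ± 0.16 (SD, n = 6; limma adjusted p = 0.000103). The probe passed detection on 2 of 5 arrays with wtDFNA5 and on 6 of 6 with mutDFNA5. With a wtDFNA5 mean at the detection limit, ZFP36 also entered the test through mutDFNA5 and its change is understated, and normexp correction gave 1.48 (adjusted p = 0.00534). CNOT1, the scaffold of the CCR4-NOT deadenylase, rose by 0.39 (adjusted p = 0.00281), though a second CNOT1 probe changed by -0.09 (adjusted p = 0.577) and the mean of both probes was not called. ELAVL1, encoding HuR, which stabilises AU-rich mRNAs, rose by 0.31 (adjusted p = 0.0273), and this call was lost without wtDFNA5 replicate 1 or 5 or mutDFNA5 replicate 1, 2 or 6 (adjusted p up to 0.0636), and with normexp, median scaling or no detection filter (0.051 to 0.0542). ZFP36L1, a relative of ZFP36, rose by 0.29 (adjusted p = 0.0312) and is named here after its value was seen. The study also lists ZFP36 and ZFP36L1 from these arrays, so their direction is not independent evidence. DET1, part of a ubiquitin ligase for JUN, fell by 0.36 on 1 probe (adjusted p = 0.00511) and by 0.25 on the other (adjusted p = 0.0299), and with median scaling the DET1 call was lost (-0.26, adjusted p = 0.251).

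Of 32 listed AP-1 target genes 29 had a probe and only 12 passed the detection filter. Of these 12, 2 were called higher, 1 lower and 9 not called, with a median of 0.12. That is 25% called, against 8.97% of all genes, in a list also chosen with earlier results known. HMOX1, which encodes the haem-degrading enzyme haem oxygenase, fell by 0.43 (adjusted p = 0.00115), a call lost with median scaling (-0.32, adjusted p = 0.110). CCND1, the cyclin that drives entry into the cell cycle, rose by 0.31 (adjusted p = 0.0220), and TIMP1, an inhibitor of matrix metalloproteinases, by 0.26 (adjusted p = 0.0495). The CCND1 call was lost without wtDFNA5 replicate 1 or 5 or mutDFNA5 replicate 5 or 6 (adjusted p up to 0.0575), and with normexp (0.0572). The TIMP1 call held only without mutDFNA5 replicate 2 or 4, and its adjusted p reached 0.111 in the other fits without 1 array and 0.110 without the detection filter.

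**Figure D4:**
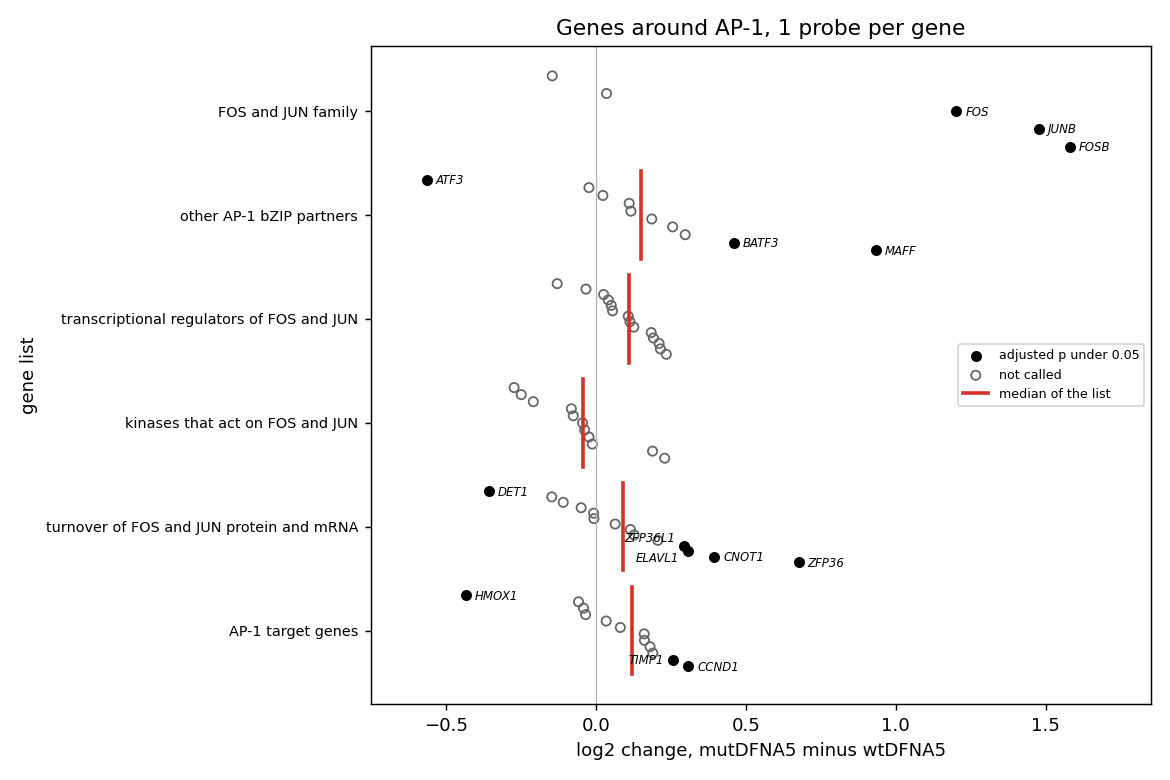
Log2 change (mutDFNA5 minus wtDFNA5, horizontal axis) of each tested gene of the FOS and JUN family and of 5 lists around it (vertical axis), 1 probe per gene, filled where the adjusted p was under 0.05, with a red line at the median of each of the 5 lists. FOS, JUNB and FOSB lie between 1.20 and 1.58, MAFF at 0.93 and ZFP36 at 0.68, and no gene of the regulator and kinase lists is filled.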

How the data were processed

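Total RNA of transfected HEK293T cells was labelled and hybridised to Illumina HT12 beadchips. The authors deposited log2 signals not normalized between arrays, detection p-values deposited beside them, and a quantile-normalized log2 table. The submitters' processing notes name limma 3.24.4, and the study's methods name no background correction. Groups and replicates came from the labels. Quantile normalization was repeated here (limma 3.58.1, R 4.3.3), and no value departed from the authors' table by more than 0.019. Without background subtraction, changes of dim probes are understated. The 14542 probes that reached a detection p under 0.01 on 5 or more of the 11 arrays were tested by limma without covariates (two-sided, Benjamini-Hochberg over all of these probes), and each adjusted p of a gene comes from that fit unless another is named.

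The annotation is for a later HT12 version than the methods name. Named genes were the 7 members, up to 4 called genes with the largest change per list (or the smallest p where none was called), and the 3 closest profiles per called member. Members and lists were chosen with earlier results of these data known. The test was checked on simulated data. Alternatives were normexp (offset 16), median scaling, the authors' table, other detection filters, a robust trended prior, the mean of a gene's probes, a replicate block and leaving out each array. The number of arrays limits the precision.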

Additional observations from a re-analysis of the deposited data

Results flagged for a closer look

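In 52 groups of arrays, 1 gene and group each, the farthest array was compared with the rest by Dixon's criterion, which chance meets in about 1 group in 20, and 3 met it. The JUND signal of mutDFNA5 replicate 5 was 13.10, against 13.36 to 13.42 in the other mutDFNA5 arrays. The SRF signal of wtDFNA5 replicate 4 was 11.38, against 10.92 to 11.04 in the other wtDFNA5 arrays. The ELAVL1 signal of mutDFNA5 replicate 3 was 8.05, against 8.41 to 8.53 in the other mutDFNA5 arrays. No array of FOS, FOSB or JUNB met the criterion.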

How the results depend on the processing

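FOS, FOSB and JUNB were called higher, and JUN and JUND not called, in all 18 alternatives, and without 1 array the changes ran from 1.14 to 1.26 (FOS), 1.51 to 1.62 (FOSB), 1.44 to 1.50 (JUNB), -0.0077 to 0.10 (JUN, whose sign turned) and -0.21 to -0.09 (JUND). Counts over all probes moved more. With median scaling, which moved the median of all genes from -0.005 to 0.07, 376 probes were called higher and 72 lower, against 569 and 627. Without a detection filter 400 were called lower. Without 1 array, 425 to 548 were called higher and 440 to 572 lower. Same-numbered arrays correlated by -0.06 to 0.11 in their deviations, and 1 of 5 wtDFNA5 arrays correlated best with its own number. The study left out 1 wtDFNA5 sample at quality control, so equal numbers need not mark the same experiment. The check therefore cannot show whether the arrays were paired. With the number as a block, 374 were called higher and 388 lower, and FOS, FOSB and JUNB rose by 1.26, 1.59 and 1.50.

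In the lists, detection on all 11 arrays left 1 partner called higher, and 1 kinase higher and 2 lower. The mean of a gene's probes gave 1 kinase higher and 1 lower, and normexp 1 higher. Turnover genes called higher were 2 with normexp, with median scaling, without a filter and with the block. Targets called higher were 0 with normexp or the block, and 1 with median scaling or without a filter. Median scaling left 0 turnover genes and 0 targets called lower, DET1 and HMOX1 among the calls lost. Without 1 array, 2 to 3 partners, 0 to 1 transcriptional regulators, 0 to 1 kinases, 2 to 4 turnover genes and 0 to 2 targets were higher, 0 to 2 kinases were lower, and 6 to 8 pairs of members differed. Where a cause is not stated it was not tested. Differences between probes of a member could not be tested, since each member has 1 probe. Dim signal limits FOSL1 and FOSL2.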
